A study of Mus musculus with 12 samples.

Results

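The genes described here mark the formative epiblast: 8 transcription factors (Otx2, Pou3f1, Zic2, Zic5, Sox3, Sox4, Foxd3 and Sall2) and 2 fibroblast growth factor ligands (Fgf5 and Fgf15), followed through RNA-seq of mouse embryonic stem cells (ESCs). They were chosen by name, with earlier results of these data known, and are 10 of the 23496 genes in the deposited table. The 12 libraries form 3 groups of 4. Wild type ESCs and Tfcp2l1 knockout ESCs were grown in 2i medium, which is free of serum and holds 3 µM CHIR99021 (a GSK3 inhibitor), 1 µM PD0325901 (a MEK inhibitor) and LIF at 1000 units/mL. The other wild type group grew in medium with 15% fetal bovine serum (FBS), which also held LIF at 1000 units/mL but neither inhibitor. LIF is thus common to all groups. The labels give no strain, no number of clones and do not say that replicates are separate cultures; each p-value therefore weighs a difference against a spread that may be technical.

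ESCs in 2i resemble the naive epiblast of the early blastocyst. On the way to gastrulation the epiblast passes through a formative state, in which naive factors are lost and Otx2, Pou3f1 and Fgf5 come on before lineage markers do. FGF ligands act through receptor tyrosine kinases and MEK to activate ERK, the step that PD0325901 blocks. ESCs in serum with LIF are a mixed population in which some cells carry early differentiation transcripts, and in bulk RNA fewer cells of a type and less RNA per cell cannot be told apart.

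Levels are FPKM (fragments scaled to transcript length and to the mapped fragments of the library), as the authors deposited them, summed per gene. FPKM are scaled to length, so levels of different genes can be set side by side. All 14 markers of naive and general pluripotency examined reached 1 FPKM in every library, with summed levels of 1776.3 to 3330.1 FPKM, so the cells carried the transcripts their label names. Tfcp2l1, a transcription factor of the naive network and the targeted gene, stood at 132.0 ± 13.8 FPKM in wild type 2i cells, 78.9 ± 5.92 in the knockout and 31.3 ± 4.63 in FBS (mean ± SD, n = 4, as throughout). The knockout libraries thus kept 59.8% of the wild type transcript level, which does not by itself check the label. Summed over 20 fibroblast markers, levels were 223.8 to 364.2 FPKM in wild type 2i cells, 406.6 to 687.8 in the knockout and 154.4 to 220.6 in FBS. None of the 10 genes lies on chromosome 6, whose genes had a median difference of -0.145 in the knockout. The median differences of the chromosomes that hold them stayed between -0.055 and 0.056 on the log2 scale in every comparison.

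The genes sit on 6 chromosomes (mm9, from the deposited table). Otx2 is at chromosome 14, 49277859 to 49282547, Sall2 at 52930852 to 52948345, Zic5 at 122858382 to 122864880 and Zic2 at 122874606 to 122879550 of the same chromosome. Foxd3 (99322990 to 99325362) and Pou3f1 (124334889 to 124337899) are on chromosome 4. Sox4 is on chromosome 13 (29042599 to 29045551), Fgf5 on chromosome 5 (98683203 to 98706052), Fgf15 on chromosome 7 (152082437 to 152086856) and Sox3 on the X chromosome (58144541 to 58146605). Sall2 and Fgf5 each have 2 RefSeq entries in the table and the others have 1. Every value covers a whole transcript, exons and UTRs together.

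In wild type cells the 10 genes did not behave as a single group between the media. Otx2, Pou3f1, Sox4, Fgf5, Fgf15 and Sall2 were higher in FBS, Foxd3, Zic2 and Zic5 were lower, and Sox3 did not pass the test. In 2i, Zic2 at 43.8 and Foxd3 at 41.7 FPKM were the most abundant of the 10, followed by Zic5 at 12.9, with the other 7 between 0.0896 and 3.08. In FBS, Otx2 led at 18.1 FPKM, followed by Zic2 at 12.9, Sox4 at 12.3 and Pou3f1 at 12.2. The test was limma on log2(FPKM + 1) over all genes, two-sided, with Benjamini-Hochberg adjusted p under 0.05, and all adjusted p-values below come from it.

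Read against all genes, such calls were common. Between FBS and 2i in wild type, 72.4% of the 12329 genes tested passed, 35.3% higher in FBS and 37.1% lower. Of the 10 genes 6 were higher and 3 lower. Fgf5 and Fgf15 entered the test only through FBS, where all 4 libraries reached 1 FPKM, so they had to differ. Among the other 8 genes 4 were higher and 3 lower, with a median absolute difference of 1.70, against 0.35 over all genes tested. The groups did not overlap for 5 genes that were higher in FBS and 3 that were lower. Over all genes 62.5% showed no overlap, 30.5% higher and 32.0% lower.

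**Figure D1:**
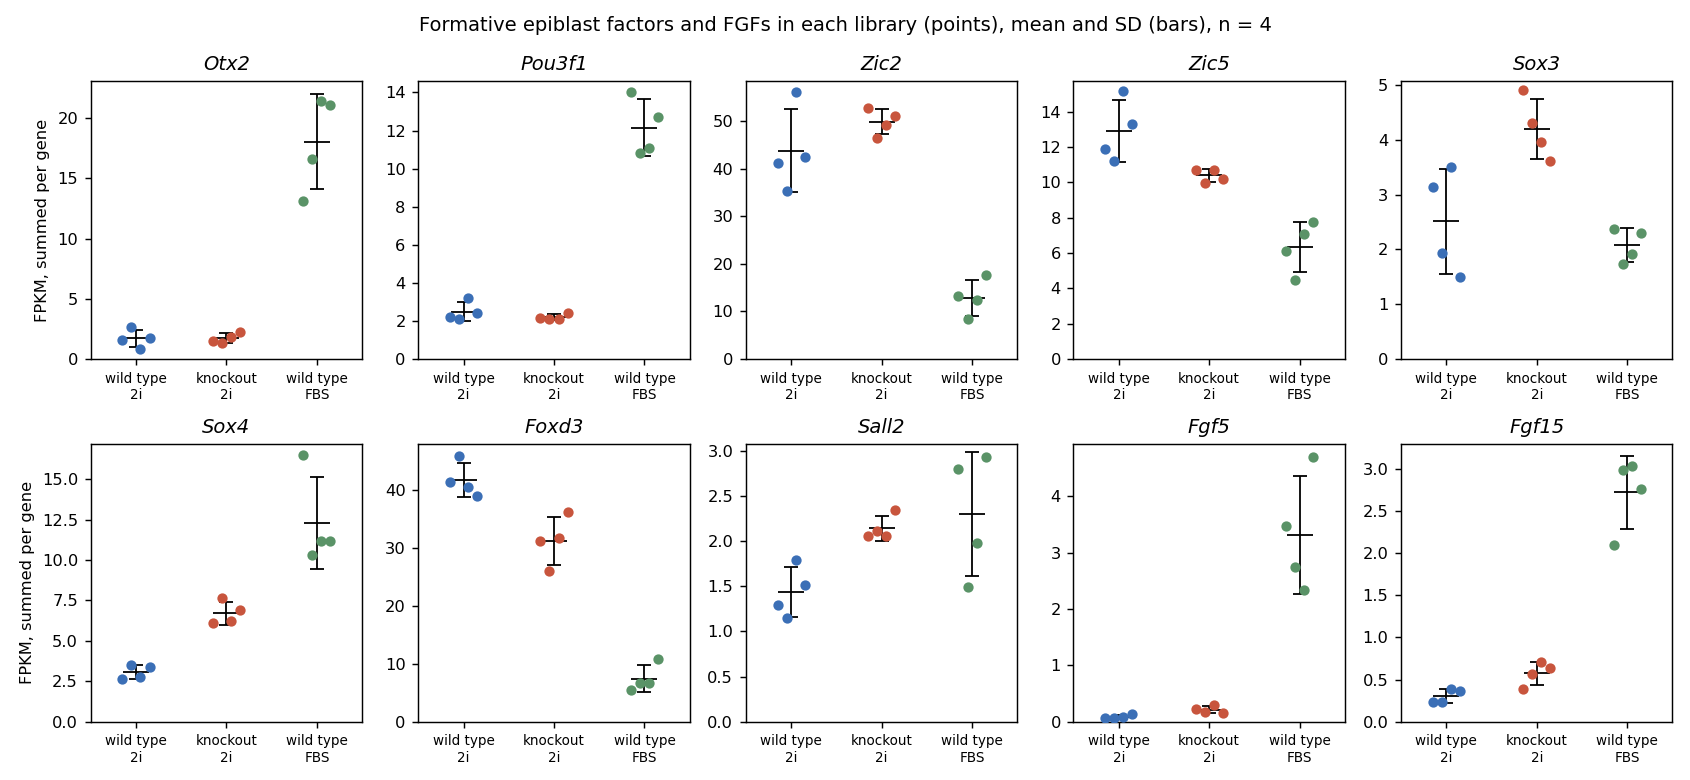
FPKM of each gene (linear axes from 0) in the 12 libraries, as points, with the group mean and SD as bars (n = 4). Otx2, Pou3f1, Fgf5 and Fgf15 stand high in FBS alone, Foxd3 and Zic2 stand low there, and Sox4 takes 3 separate levels.

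Otx2 is a homeobox factor that directs Oct4 to the enhancers of the formative state. Its level was 1.6, 2.64, 0.827 and 1.75 FPKM in wild type 2i cells (replicates 1 to 4), 1.53, 1.32, 1.87 and 2.28 in the knockout, and 13.1, 16.6, 21.4 and 21.1 in FBS. Every FBS library lay above all 8 libraries in 2i, and the 2i groups overlapped. The ratio of mean levels was 10.6, FBS over 2i in wild type, and the difference on the log2(FPKM + 1) scale was 2.83 (SE 0.20, adjusted p = 6.03e-08). That scale understates the change of low genes, and all differences below are on it. Knockout and wild type 2i cells differed by 0.05, with a 95% interval of -0.38 to 0.49 (adjusted p = 0.843).

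Pou3f1, also called Oct6, is an intronless POU factor that comes on early as naive identity is lost. It was at 2.23, 2.08, 3.19 and 2.42 FPKM in wild type 2i cells, 2.15, 2.11, 2.1 and 2.42 in the knockout, and 14, 10.8, 11.1 and 12.7 in FBS. The FBS libraries again stood apart from the other 8, at 4.91 times the wild type level in 2i (log2 difference 1.92, SE 0.10, adjusted p = 4.85e-09). In the knockout the difference was -0.11, with an interval of -0.33 to 0.10 (adjusted p = 0.379). For both factors, then, a change in the knockout larger than 0.49 upward or 0.38 downward lies outside the interval.

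Zic2 and Zic5 are zinc finger factors of the same family and neighbours, with 9725 bases between them. Zic2 was at 41.3, 35.4, 56.1 and 42.4 FPKM in wild type 2i cells, 52.8, 46.5, 49.3 and 51.2 in the knockout, and 13.3, 8.4, 12.4 and 17.6 in FBS. Zic5 was at 11.9, 11.2, 15.2 and 13.3 FPKM in wild type 2i cells, 10.7, 9.99, 10.7 and 10.2 in the knockout, and 6.14, 4.48, 7.06 and 7.74 in FBS. Both were lowest in FBS, with no overlap with either 2i group. FBS kept 29.5% of the 2i level of Zic2 (log2 difference -1.71, SE 0.17, adjusted p = 1.63e-06) and 49.2% of that of Zic5 (-0.93, SE 0.13, adjusted p = 2.08e-05). In every group, replicate by replicate, Zic2 stood above Zic5.

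Neither neighbour passed the test in the knockout. Zic2 differed from wild type 2i cells by 0.20 (interval -0.17 to 0.58, adjusted p = 0.363). Zic5 differed by -0.28 (interval -0.55 to -0.01, adjusted p = 0.0878), although its 4 knockout libraries lay below all 4 wild type libraries. Zic5 passed with the 8 libraries alone (adjusted p = 0.0218), with the replicate number as a block (0.036) and without FBS replicate 2 (0.0226).

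Foxd3 is an intronless forkhead factor needed in the early epiblast and later in the neural crest. It was at 41.4, 45.9, 40.5 and 39 FPKM in wild type 2i cells, 31.2, 26, 31.6 and 36.1 in the knockout, and 5.41, 6.76, 6.65 and 10.8 in FBS. The 3 groups did not overlap and descended in that order. FBS kept 17.7% of the wild type level in 2i (log2 difference -2.38, SE 0.15, adjusted p = 2.57e-08), the deepest fall of the 10 genes. The knockout kept 74.9% (log2 difference -0.41, SE 0.15, adjusted p = 0.0414). That call was lost in 14 of 24 alternative fits, among them both smaller pseudocounts, TPM scaling, quantile normalization and the fibroblast covariate (-0.28, adjusted p = 0.525). It was lost without any 1 of replicates 1 to 4 of the wild type 2i cells, knockout replicates 1 to 3 or FBS replicate 2 (adjusted p 0.0506 to 0.118), with the log2 difference between -0.48 and -0.33 over the 12 fits that left out a library.

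Sox4, an intronless factor of the SOXC group, took 3 separate levels. It was at 2.64, 3.52, 2.79 and 3.36 FPKM in wild type 2i cells, 6.08, 7.64, 6.21 and 6.89 in the knockout, and 16.5, 10.3, 11.2 and 11.2 in FBS. The groups did not overlap, with the knockout between the others. The knockout was at 2.18 times wild type 2i cells (log2 difference 0.92, SE 0.13, adjusted p = 0.000111) and FBS at 4 times (1.69, SE 0.13, adjusted p = 9.93e-08). FBS also exceeded the knockout, by 0.77 (SE 0.13, adjusted p = 0.000143). Fibroblast markers moved with the first of these differences: 17 of 19 tested were higher in the knockout. With their mean level as a covariate the Sox4 difference was 0.68 (adjusted p = 0.0502).

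Sox3, an intronless SOXB1 factor close to Sox2, rose in the knockout and did not pass the test in FBS. It was at 3.13, 1.93, 3.51 and 1.49 FPKM in wild type 2i cells, 4.9, 4.31, 3.95 and 3.61 in the knockout, and 2.37, 1.73, 1.91 and 2.3 in FBS. All 4 knockout libraries lay above every other library, while wild type 2i cells spread widely, with a coefficient of variation of 38%. The knockout was at 1.67 times wild type 2i cells (log2 difference 0.60, SE 0.16, adjusted p = 0.0102) and above FBS (FBS minus knockout -0.76, SE 0.16, adjusted p = 0.0013). The call in the knockout was kept in all 23 alternative fits that included the gene, with adjusted p up to 0.0455. FBS and 2i differed in wild type by -0.16 (interval -0.51 to 0.20, adjusted p = 0.406).

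In the knockout as a whole, 45.3% of genes tested passed, 24.0% higher than wild type 2i cells and 21.4% lower. Of the 10 genes, Sox4, Sox3, Sall2 and Fgf15 were higher and Foxd3 was lower, so the 5 calls are close to that background. The count rested on single libraries. It ran from 2 to 4 over the fits that left out 1 library, and Foxd3, Sall2 and Fgf15 lost their calls in some of these fits, and Fgf15 left the test without any 1 FBS library. No library, left out alone, ended the call of Sox4 or Sox3. The groups did not overlap for 6 of the 10 genes, 4 higher and 2 lower, against 44.1% of all genes (23.7% higher and 20.4% lower).

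**Figure D2:**
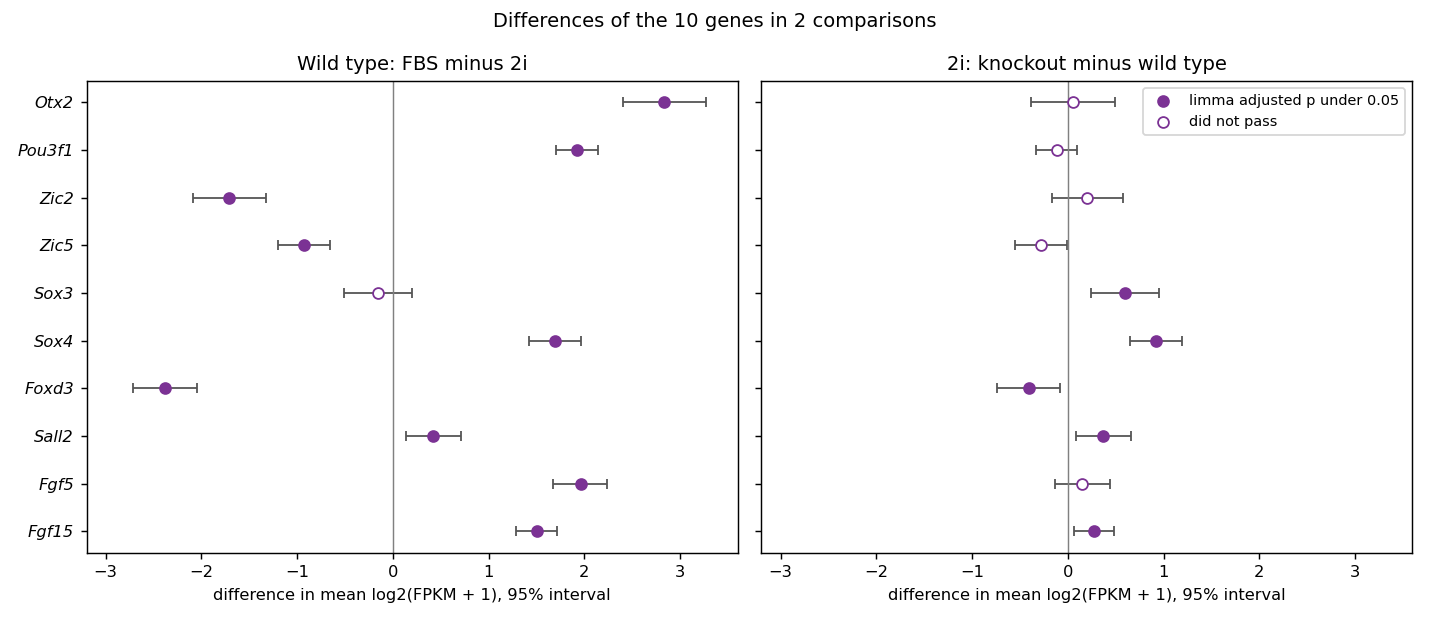
Differences in mean log2(FPKM + 1) with 95% intervals for the 10 genes, FBS minus 2i in wild type on the left and knockout minus wild type 2i cells on the right; filled points passed the test. In FBS the differences run from -2.38 (Foxd3) to 2.83 (Otx2), and in the knockout they stay between -0.41 (Foxd3) and 0.92 (Sox4).

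Sall2, a zinc finger factor of the spalt family, is transcribed from alternative promoters. Between the media, its upstream RefSeq entry changed and its downstream entry overlapped. The start sites of the 2 entries lie 12347 bases apart in the deposited mm9 coordinates. The table of RefSeq promoters (GRCm38.p6) holds 2 Sall2 promoters at that same distance of 12347 bases. The 250 bases before each start are shown because the entries' levels bear on them, 5′ to 3′ on the gene's strand, with the letters TATAAA in capitals.

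Sall2 upstream start, chr14:52328671-52328920 (minus strand): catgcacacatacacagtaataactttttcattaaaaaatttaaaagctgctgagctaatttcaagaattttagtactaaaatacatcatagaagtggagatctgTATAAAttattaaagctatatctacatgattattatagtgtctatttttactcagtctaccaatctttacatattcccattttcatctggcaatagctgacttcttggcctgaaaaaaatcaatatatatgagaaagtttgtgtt

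Sall2 downstream start, chr14:52316324-52316573 (minus strand): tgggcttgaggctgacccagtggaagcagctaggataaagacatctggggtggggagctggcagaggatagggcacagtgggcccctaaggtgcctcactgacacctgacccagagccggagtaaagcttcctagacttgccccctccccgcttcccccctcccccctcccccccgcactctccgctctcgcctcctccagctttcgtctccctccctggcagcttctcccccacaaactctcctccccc

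The upstream sequence has 28.0% G and C and 0 CpG, and the downstream one 64.4% and 6 CpG, against medians of 52.4% and 6 over 32851 promoters. Of the pair, the upstream sequence alone held TATAAA, at -145 from the start, which is farther upstream than a TATA box acts, and 12.4% of all promoters hold them on either strand.

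The entry from the downstream start, NM_001244916, was at 1.286, 1.148, 1.786 and 1.425 FPKM in wild type 2i cells, 2.046, 2.11, 2.061 and 2.338 in the knockout, and 2.433, 1.294, 1.519 and 1.594 in FBS. The knockout libraries lay above all wild type 2i libraries (difference 0.39, exact permutation p = 0.0286, two-sided, the minimum with 70 splits). FBS overlapped both 2i groups. The entry from the upstream start, NM_015772, was at 0.365, 0.1997, 0.4559 and 1.331 FPKM in FBS, but at 0.08483 in replicate 4 of the wild type 2i cells and with upper bounds of at most 0.01624 in the other 7 libraries in 2i. All 4 FBS libraries lay above all 8 in 2i for this entry (difference 0.59, exact two-sided permutation p = 0.0286). FBS replicate 4 was the highest of them. How Cufflinks divided reads shared by the entries is not given in the sources used here, so the split is an estimate.

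Summed over both entries, Sall2 was at 1.29, 1.15, 1.79 and 1.51 FPKM in wild type 2i cells, 2.05, 2.11, 2.06 and 2.34 in the knockout, and 2.8, 1.49, 1.98 and 2.93 in FBS. The knockout (log2 difference 0.37, SE 0.13, adjusted p = 0.0352) and FBS (0.42, SE 0.13, adjusted p = 0.0115) were both above wild type 2i cells. The comparisons share those wild type libraries. Leaving out replicate 1, 2 or 4 of wild type 2i cells ended the knockout call, as did leaving out any 1 of the 4 knockout libraries (adjusted p 0.0542 to 0.0954) and using the fibroblast level as a covariate (0.13, adjusted p = 0.739). With the higher entry in place of the sum, the FBS difference was 0.16 (adjusted p = 0.241).

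Fgf5 is the ligand used most widely as a marker of the epiblast that has left the naive state. It was at 0.0694, 0.0632, 0.0846 and 0.141 FPKM in wild type 2i cells, 0.222, 0.175, 0.292 and 0.153 in the knockout, and 3.48, 2.74, 2.33 and 4.7 in FBS. The transcript was thus near 0 in all 8 libraries in 2i and present in all 4 in FBS, at 37 times the mean level of wild type 2i cells. The knockout libraries lay above those of wild type 2i cells, but the difference of 0.15 did not pass (interval -0.13 to 0.44, adjusted p = 0.369). It passed with a pseudocount of 0.1 (0.71, adjusted p = 0.0272) or 0.01 (1.17, adjusted p = 0.0114), settings that weigh differences far below 1 FPKM more.

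Both RefSeq entries of Fgf5 were higher in FBS. NM_010203 was at 2.583, 2.075, 1.682 and 4.002 FPKM there and NM_001277268 at 0.8978, 0.6691, 0.6522 and 0.6953. In 2i neither exceeded 0.2846 FPKM in any library. FBS lay above wild type 2i cells by 1.78 for the first and 0.69 for the second (exact two-sided permutation p = 0.0286 each, the smallest possible). Fgf5 entered the limma test only through FBS and so had to differ there. These permutation p-values restate that separation and add no support of their own.

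**Figure D3:**
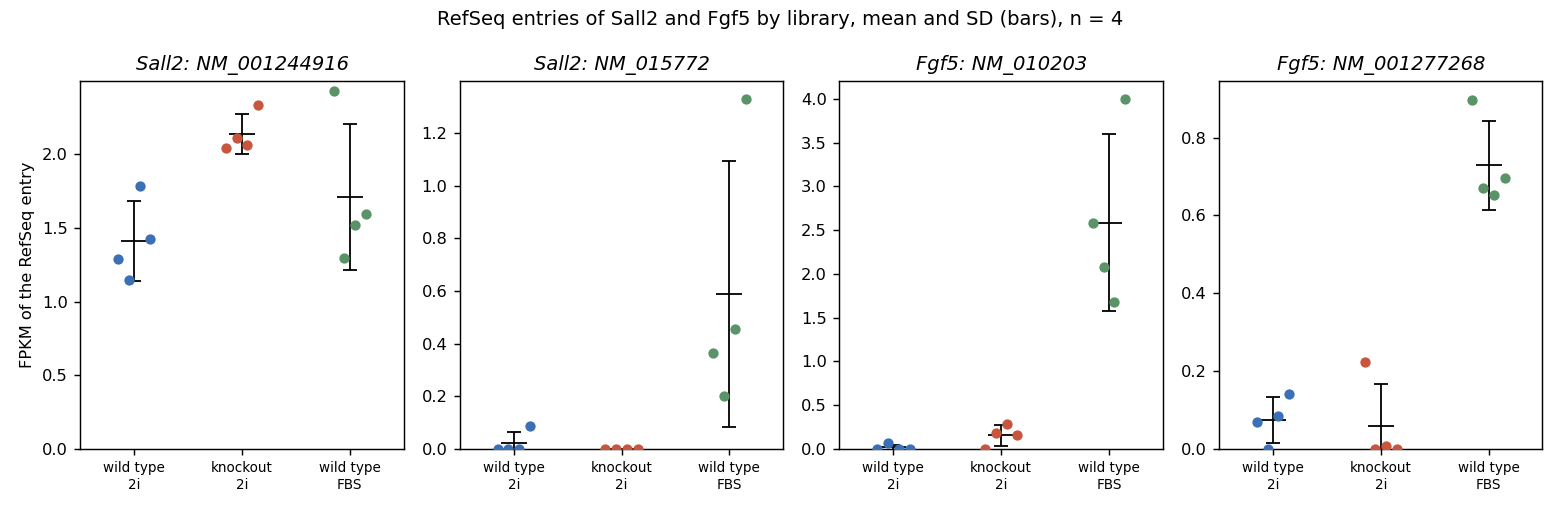
FPKM (linear axes from 0) of the 2 RefSeq entries of Sall2 and of Fgf5 in the 12 libraries, with group mean and SD (n = 4). The upstream Sall2 entry, NM_015772, is at 0.1997 to 1.331 FPKM in FBS and at most 0.08483 in 2i, whereas NM_001244916 is present in every library.

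Fgf15, the mouse counterpart of human FGF19 and a ligand of the embryonic brain and gut, followed a similar course at low levels. It was at 0.237, 0.235, 0.392 and 0.361 FPKM in wild type 2i cells, 0.388, 0.566, 0.713 and 0.632 in the knockout, and 2.1, 2.99, 3.03 and 2.76 in FBS. FBS was apart from both 2i groups, at 8.88 times the wild type mean in 2i (log2 difference with a 95% interval of 1.29 to 1.71, adjusted p = 2.86e-08). Fgf15 entered the test only through FBS and so had to differ there, and that p-value adds no support. The knockout passed by a small amount (0.27, SE 0.10, adjusted p = 0.0386), with 1 library inside the wild type range. That call was lost after quantile normalization (0.11, adjusted p = 0.361) and with the fibroblast covariate (0.15, adjusted p = 0.606). Leaving out replicate 1, 2 or 4 of wild type 2i cells, or 2, 3 or 4 of the knockout, also ended it (adjusted p 0.0522 to 0.109).

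The promoters of Fgf5 and Foxd3 are shown as those of genes that moved in opposite directions in FBS. They are from RefSeq (GRCm38.p6), the 250 bases before the start, with motif matches on either strand in capitals. The motifs are the GC box (GGGCGG) and a paired site like that bound by Tfcp2l1 and its relatives, CCNG repeated after a spacer of 6 bases.

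Fgf5, chr5:98253934-98254183 (plus strand): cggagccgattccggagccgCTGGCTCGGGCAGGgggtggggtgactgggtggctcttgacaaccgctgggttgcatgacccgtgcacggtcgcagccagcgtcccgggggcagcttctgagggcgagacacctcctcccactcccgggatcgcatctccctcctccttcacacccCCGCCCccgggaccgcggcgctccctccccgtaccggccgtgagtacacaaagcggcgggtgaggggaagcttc

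Foxd3, chr4:99656049-99656298 (plus strand): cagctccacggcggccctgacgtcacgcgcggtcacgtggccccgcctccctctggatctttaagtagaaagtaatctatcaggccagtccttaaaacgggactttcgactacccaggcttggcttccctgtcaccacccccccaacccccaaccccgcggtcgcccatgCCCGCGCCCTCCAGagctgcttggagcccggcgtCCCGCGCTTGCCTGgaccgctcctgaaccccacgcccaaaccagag

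Of the 10 genes 6 had promoters in that table, 10 promoters in all. The paired motif was found once in the Fgf5 and the Zic5 promoter, once in each of 2 of the 4 Otx2 promoters and at 2 places in that of Foxd3. It was not found in those of Sox4 and Sall2. Of all 32851 promoters 24.9% hold it, and 32.7% hold the GC box, which was found in Fgf5 alone. CTTTGA, the core letters of TCF/LEF sites, was found in none of the 10 promoters, against 13.8% of all. No 2 matches overlapped. A match describes letters in this window and not a bound site.

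The order of the 3 groups differed from gene to gene. Foxd3 was highest in wild type 2i cells, intermediate in the knockout and lowest in FBS, with both steps past the test. Sox4 and Fgf15 took the reverse order, also with both steps past it. The step between the 2i groups was lost in 14 of 24 alternative fits for Foxd3. It was lost in 8 of the 19 that included Fgf15 and in 1 of 24 for Sox4. For Otx2, Pou3f1 and Fgf5 the 2i groups did not differ beyond the test and FBS was above both. For Zic2 and Zic5 FBS was below both, and the 2i groups did not differ beyond the test. Sox3 was highest in the knockout, and Sall2 was lowest in wild type 2i cells. Between FBS and the knockout, which differ in genotype and in medium, 66.6% of genes tested passed, 31.9% higher in FBS and 34.7% lower. Of the 10 genes 5 were higher in FBS and 4 lower, all without overlap (30.0% and 32.8% of all genes, 62.8% in all), and Sall2 did not pass (0.05, interval -0.24 to 0.33, adjusted p = 0.76). Fgf5 and Fgf15 are among those 5, and they entered the test only through FBS.

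Markers of other cell types moved with the FBS differences. Summed over 13 neural markers, levels were 70.9 to 87.5 FPKM in wild type 2i cells, 88.2 to 92.5 in the knockout and 112.7 to 138.6 in FBS, and 5 of 7 tested were higher in FBS, among them Neurod1, which entered the test only through FBS. Map2, also among them, reached 1 FPKM only in the knockout and FBS, so it had to be higher in FBS than in wild type 2i cells. The neural markers Neurog2, Hes5 and Dcx stayed below 1 FPKM in all 12 libraries, although Hes5 was higher in FBS than in wild type 2i cells without overlap (0.32 and 0.0175 FPKM). Summed over 13 extraembryonic endoderm markers, levels were 28.7 to 35.7, 32.8 to 41.7 and 62.8 to 78 FPKM in the same order, and 4 of 5 tested were higher in FBS, among them Amn, which entered the test only through FBS. Sox17, Sox7, Foxa2, Afp, Ttr, Cubn and Apoa1 stayed below 1 FPKM throughout. Below that level Cubn (0.00647 and 0.795 FPKM), Foxa2 (0.0821 and 0.732) and Sox7 (0.153 and 0.573) were still higher in FBS than in wild type 2i cells, without overlap. Sox17 went the other way, from 0.697 FPKM in wild type 2i cells to 0.323 in FBS, also without overlap. For Afp, Ttr and Apoa1 these groups overlapped. Gata4, a defining factor of that lineage, was at 1.89, 2.51 and 1.66 FPKM in wild type 2i cells, knockout and FBS, and Gata6 at 0.771, 1.19 and 0.734. The part of such cells in the values of Otx2, Sox3, Sox4, Zic2, Zic5 and the FGFs was not tested.

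Genes whose course over the 12 libraries lay closest to a member were found by the root mean square difference of log2(FPKM + 1) profiles, each centred on its own mean. Foxd3 lay closest to Tbx3, a naive T-box factor (difference 0.15), and to Jam2, a junction protein (0.163). Tbx3 was at 94, 61.8 and 17.5 FPKM in wild type 2i cells, knockout and FBS. Zic2 lay closest to Ticrr, a replication initiation factor (0.147), and Fbxo15, an ESC marker (0.196), and Otx2 to Plaur (0.27) and Utf1 (0.282). Pou3f1 lay closest to Kcnk1 (0.151) and Espn (0.166), Zic5 to A930004D18Rik (0.104) and Bcorl1 (0.107), and Sox3 to H3c10 (0.126) and Zswim5 (0.17). Sox4 lay closest to Lgals1, a galectin (0.14), and Flnc, a filamin (0.143), and Sall2 to Ppp1r18 (0.0885) and Tmem39b (0.118). Fgf5 lay closest to Pga5 (0.155) and Vgf (0.169), and Fgf15 to Amn (0.0995) and Klhl21 (0.11). Among the 10 genes themselves the closest were Pou3f1 and Fgf5 (0.209), and the farthest apart were Otx2 and Foxd3 (2.37).

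Other formative and primed epiblast genes were mostly higher in FBS: of 20 tested in a list of 22, 13 were higher and 2 lower, with a median difference of 1.59 against -0.01 over all genes. Utf1, a chromatin factor, rose from 60.7 ± 3.9 to 382.5 ± 16.8 FPKM, Cldn6, a tight junction protein, from 5.69 to 84.1, Dnmt3b, a DNA methyltransferase, from 10 to 102.9, and Lin28b, which blocks let-7, from 0.727 to 5.29. Tdgf1, a Nodal co-receptor, did not pass, at 252.4 ± 29.8 and 237.2 ± 31.5 FPKM. In the knockout 8 of the 20 were higher and 5 lower, with a median of 0.25 against 0.01. Lef1, a Wnt effector, rose from 1.19 to 8.61 FPKM and the ETS factor Etv4 fell from 13.1 to 2.99, while Cldn6 (16.8) and Lin28b (2.18) rose. Utf1 did not pass there, at 60.2 ± 3.92 FPKM. Like Otx2 and Pou3f1, it was higher in FBS and within the spread of wild type in the knockout. Lin28b reached 1 FPKM only in the knockout and FBS, so it had to be higher in both comparisons. Cdh2 and T, counted among the genes higher in the knockout, likewise reached 1 FPKM in no wild type 2i library.

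Relatives of the 8 transcription factors, like the other lists, are to be read against the shares of all genes that passed, 72.4% in FBS and 45.3% in the knockout. Of 18 relatives 9 were tested; 4 were higher in FBS and 3 lower, and in the knockout 5 were higher and 2 lower. Otx1, the relative of Otx2, went the other way from it in FBS, from 1.74 to 0.132 FPKM (log2 difference -1.27, SE 0.09). Otx1 and Foxd1, both among the 3 lower in FBS, entered the test only through 2i, so they had to be lower there. The SOXC factors Sox11 (2.12, 4.27 and 7.05 FPKM in wild type 2i cells, knockout and FBS) and Sox12 (6.4, 10.3 and 14.4) passed in both comparisons in the direction of Sox4. Sall4 rose in the knockout (57.6 to 83.3 FPKM), and Sall1 rose in FBS (15.5 to 39.6). Sox2 passed in neither, at 184.6 ± 16.3, 167.2 ± 13.2 and 196.9 ± 19 FPKM. The other POU class III factors, Pou3f2, Pou3f3 and Pou3f4, and Zic1, Zic4, Foxd2, Foxd4 and Crx, stayed below 1 FPKM in every library.

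Of 20 further FGF ligands 8 were tested; 1 was higher in FBS and 5 lower, and in the knockout 2 were higher and 2 lower. Over all genes 72.4% passed in FBS and 45.3% in the knockout, so the ligands passed about as often as other genes. In FBS 62.5% of the ligands tested were lower, against 37.1% of all genes. Of the 8 ligands 5 reached 1 FPKM in 2i alone, so the filter favoured a lower level in FBS for them. Fgf1, Fgf3, Fgf7 and Fgf10, all called lower in FBS, are among those. Fgf4, the ligand ESCs make most, was at 78 FPKM in wild type 2i cells, 65 in the knockout and 58.7 in FBS, lower than wild type 2i cells in both (log2 difference -0.26, adjusted p = 0.0388, and -0.41, adjusted p = 0.00167). Fgf3 fell in FBS from 2.23 to 0.625 FPKM and Fgf10 from 2.6 to 0.841, and Fgf13 rose from 0.81 to 1.81. In the knockout Fgf7 rose from 1.34 to 2.42 FPKM and Fgf13 to 1.35, and Fgf10 fell to 1.48. Fgf17 passed in neither, at 6.49 ± 3.95, 5.42 ± 1.75 and 5.02 ± 0.559 FPKM.

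Of 7 receptors and co-receptors 4 were tested. Fgfr2 was at 0.391, 1.75 and 11.5 FPKM in wild type 2i cells, knockout and FBS, and Fgfr1 at 16.3, 22.3 and 25.9, both higher in both comparisons. Fgfr2 reached 1 FPKM only in the knockout and FBS, so it had to be higher in both comparisons. Fgfrl1, a receptor without a kinase domain, was lower in both (7.15, 4.96 and 4.1 FPKM), and Fgfr3 passed in neither (1.08, 0.949 and 1). Among 12 ERK feedback genes, whose products restrain the pathway or mark its activity, 9 were higher and 2 lower in FBS, and 8 higher and 1 lower in the knockout. The phosphatases Dusp6 (15.6, 26.6 and 44.3 FPKM) and Dusp4 (4.44, 6.38 and 16.9) were higher in both, Spry4 reached 18.3 FPKM in FBS from 2.34, and Spred1 rose in FBS from 7.44 to 14.7. Spry2 rose in the knockout (79.9 to 135.2 FPKM) and was lower in FBS (65.7), Spred2 rose (15.5 to 21.4) and Spry1 fell (9.45 to 7.07) in the knockout. Phlda1 did not pass in the knockout (12.4 and 10.4 FPKM), nor Dusp5 in FBS (12.6 and 14.3).

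**Figure D4:**
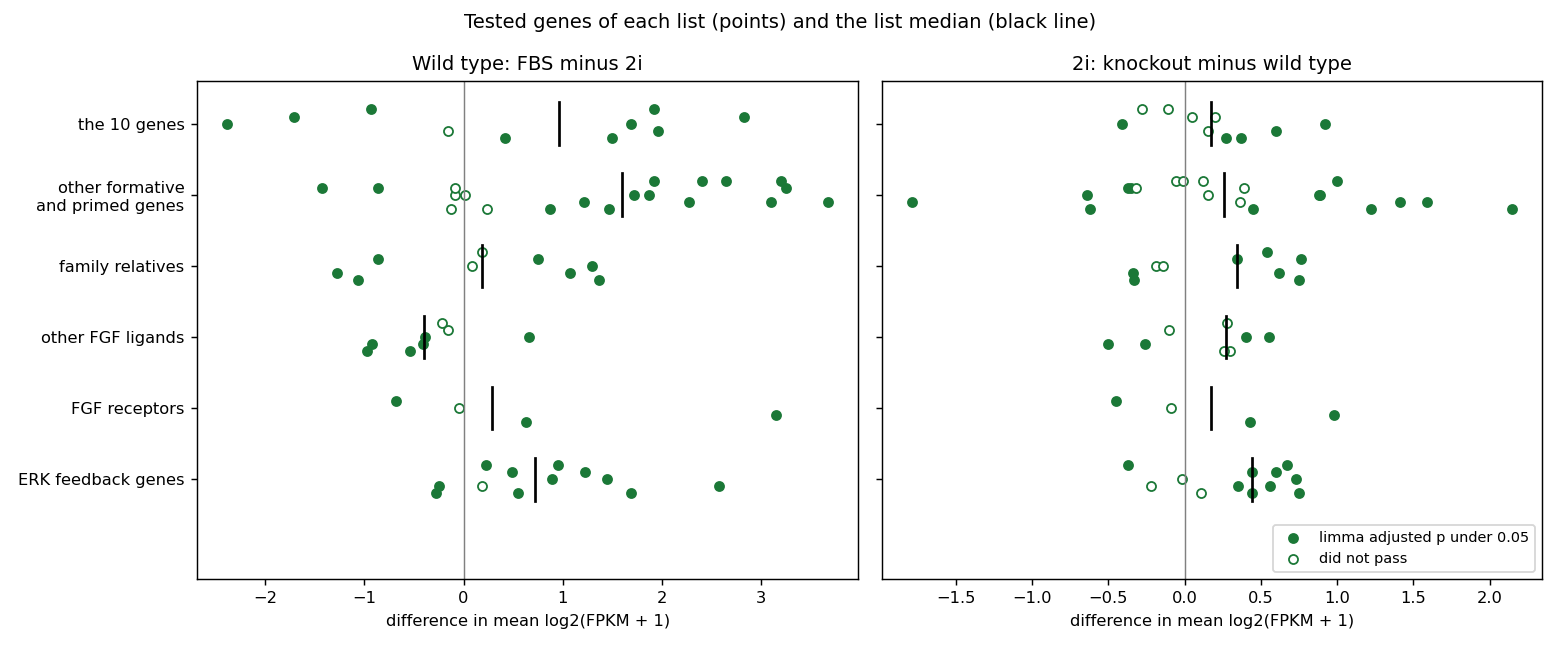
Differences in mean log2(FPKM + 1) of the tested genes in each list, FBS minus 2i in wild type on the left and knockout minus wild type 2i cells on the right; the black line is the list median and filled points passed the test. In FBS the median is 1.59 for other formative and primed genes, 0.96 for the 10 genes, of which 3 lie below 0 and passed, and -0.40 for other FGF ligands. Most of those ligands entered the test only through 2i. Fgf5 and Fgf15, among the 10 genes, entered only through FBS, and the median of the other 8 is 0.13.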

How the data were processed

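Trizol RNA and an Illumina TruSeq kit were used, per the labels' protocols. The authors deposited 1 table of FPKM values for 30761 RefSeq entries, with bounds and a status for each value. CASAVA 1.8.2, Cufflinks (version not given) and mm9 were used, per the submitters' processing notes; aligner and strand handling are not given in the sources used here, so antisense reads cannot be told apart. Depth is unknown, and library sums of FPKM ran from 347772 to 358340. The authors' interval reached a median of 7.28% (Zic2) to 73.6% (Fgf5) of a value for the 10 genes, where it enclosed the value; it did not in 5 of 12 libraries for Zic2, whose median rests on the other 7, and in 7 of 12 for Foxd3.

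Symbols came from RefSeq (GRCm38.p6) and GENCODE tables, which named 98.8% of entries; entries were summed per symbol, and 7 genes with a failed estimate in any library were left out. The 12329 genes that reached 1 FPKM in 4 or more libraries were tested on log2(FPKM + 1) with limma 3.58.1 (R 4.3.3): 1 mean per group over all 12 libraries, eBayes with an intensity trend, Benjamini-Hochberg adjustment over all genes tested. The comparison of FBS with the knockout served to order the groups. Single RefSeq entries were compared by exact permutation over 70 splits. The model was tested on simulated data. Python 3.11.15, numpy 2.4.6, pandas 2.3.3 and matplotlib 3.10.9 were used.

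The members and lists were chosen with earlier results of these data known. Named were all members; per list and comparison, up to 4 genes with the smallest adjusted p and the highest-expressed gene that did not pass; and the 2 genes closest in profile to each member; some genes this covers are not reported here. Alternatives were pseudocounts of 0.1 and 0.01, no filter or 5 FPKM, TPM, quantile and median-ratio scaling, a fit to only the 8 libraries compared, the replicate number as a block, no trend, the highest entry per symbol, the mean log2 level of fibroblast markers as a covariate, and each library left out.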

Additional observations from a re-analysis of the deposited data

Results flagged for a closer look

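Of 30 groups of 4 values (10 genes in 3 groups) 2 held a library far from the other 3, where chance flags about 1 group in 20. Sox4 in FBS replicate 1 stood at 16.5 FPKM, with a gap to the next library of 0.851 of the group's range; without it the mean was 10.9 ± 0.517 FPKM (n = 3) and the difference from wild type 2i cells was 1.55 (limma adjusted p = 7.62e-08). Pou3f1 in knockout replicate 4 stood at 2.42 FPKM, with a gap of 0.830 of a range that ran only from 2.1 to 2.42.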

How the results depend on the processing

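Over the 24 alternatives, Otx2, Pou3f1, Zic2, Zic5, Sox4 and Foxd3 kept their direction and call between FBS and 2i in every fit. Fgf5 and Fgf15 entered 19 fits. Except in the fit with no filter they entered only through FBS, so their calls between FBS and 2i show no stability. In the knockout Sox3 kept its call in all 23 fits that included it and Sox4 in 23 of 24. The 5 calls among the 10 genes in the knockout became 3 with no filter, 2 with a filter of 5 FPKM (1 higher, with 6 genes tested), 2 after quantile normalization (2 higher, 0 lower) and 1 with the fibroblast covariate (1 higher, 0 lower). The 1 lower call became 0 with pseudocounts of 0.1 and 0.01, no filter and TPM scaling, and 2 with the 8 libraries alone. It was also 2 with the replicate block. Over genes, same-numbered knockout and wild type 2i libraries deviated together with r of 0.06, 0.26, 0.22 and 0.19. Differently numbered ones had r from -0.30 to 0.15. Pairing by number therefore cannot be set aside, and the main fit did not use it. Leaving out 1 library gave 2 to 4 calls, 2 to 4 higher and 0 to 1 lower; FBS against the knockout then gave 3 to 5 higher, since Fgf5 and Fgf15 fall below the filter without an FBS library. A filter of 5 FPKM left 3 higher in FBS against either 2i group. With the fibroblast covariate 1985 genes (842 higher, 1143 lower) passed in the knockout, against 5589, and 2929 (1623 and 1306) between FBS and the knockout, against 8212; over the 5 companion lists it gave 15 (11 and 4) and 25 calls (6 lower), and Fgfrl1 went from -0.23 to 0.11 between FBS and the knockout. Lower calls in the companion lists were 7 in the knockout and 6 in both FBS comparisons at 5 FPKM, and 21 between FBS and 2i with no filter. Apart from these counts of genes tested, the cause of each shift was not tested. Read depth is unknown, which limits what can be said of genes below 1 FPKM.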

Other observations

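The noncoding RNA gene 2610035F20Rik, noticed after the values were seen, lies between Zic5 and Zic2 and ends 184 bases before Zic2 in the deposited coordinates (mm9, chromosome 14, 122869599 to 122874421). It was at 2.56 FPKM in wild type 2i cells, 2.62 in the knockout and 0.978 in FBS (FBS minus 2i -0.86, SE 0.11, limma adjusted p = 1.57e-05), so the 3 neighbours were all lower in FBS. Strand handling is not known, and reads near the shared boundary cannot be assigned with certainty. Within FBS, replicate 4 held the highest value for 5 of the 10 genes and replicate 2 the lowest for 6; within wild type 2i cells, replicate 3 held the highest for 6 and replicate 2 the lowest for 6.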
